A study of Homo sapiens and Mus musculus with 22 samples.

Results

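The 33 genes described here encode the enzymes of glycolysis, the carriers that move glucose in and lactate out, the enzymes that decide the fate of pyruvate, and 7 widely used hypoxia response genes. They were taken by symbol from 3 count tables of small cell lung cancer (SCLC) lines. All 33 were listed among the 25435 rows of the H69 and H69M table and the 20113 rows of the H69EZ table, and 31 among the 24047 rows of the mouse table. The filter on low counts left 33, 32 and 30 of them to test. PDK4 in the H69EZ table and mouse Eno1, with 9 counts over 6 libraries, were listed but not tested. Mouse Gpi and Ca9 were not found by symbol. The mouse table lists these genes as Gpi1 and Car9, which were not counted as members.

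Glycolysis splits glucose into pyruvate in the cytosol. Cells either pass pyruvate into mitochondria through the pyruvate dehydrogenase complex, which the PDK kinases switch off, or reduce it to lactate with lactate dehydrogenase. When oxygen is low, the hypoxia-inducible factors (HIF) are no longer hydroxylated by the EGLN enzymes and degraded, and they raise transcription of many glycolytic genes together with CA9, VEGFA, ADM, BNIP3 and NDRG1. Most steps of glycolysis have several isozymes from separate genes, so that a tissue is marked by which of them it uses.

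The 22 libraries came from isogenic sets of SCLC cells with low and high MHC class I, the molecules that show peptides to cytotoxic T cells. H69 (NCI-H69, human, unsorted) was labelled MHC class I low or negative, and H69M, derived from H69 by a published procedure and also unsorted, MHC class I high. H69M was further sorted for PD-L1, a ligand that inhibits T cells, into a PD-L1 low fraction, labelled MHC class I low or negative, and a PD-L1 high fraction, labelled MHC class I high (n = 3 libraries in each of these 4 groups). H69EZ cells had been exposed to an EZH2 inhibitor for 6 days, then grown without it and selected for adherence, so both of its fractions share that history. They were sorted into HLA-ABC low and HLA-ABC high (n = 2 each). The mouse line RPP, MHC class I low or negative, was compared with RPP-A, MHC class I high, which was obtained from RPP by adherent growth on plastic (n = 3 each). Each derivative is 1 line, and nothing in the labels tells whether the replicates were grown separately. The p-values therefore reflect how far these particular libraries vary, which may be technical variation only.

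Total counts were 12814594 to 26834561 per library in the H69 and H69M table, 40568796 to 52458228 in the H69EZ table and 10817795 to 19973785 in the mouse table. Each table was analysed on its own, and levels are CPM, counts divided by the TMM-scaled library total and put on a common scale. The RPP column EHK_RPP4 stood apart from RPP1 and RPP2, at a chi-square of 28.1 and 31.7 per degree of freedom against 3.42 between those, and the RPP-A column RPPM3 from RPPM1 and RPPM2, with 34.3 and 37.2 against 1.33. Cell state markers moved with every group below: the summed level of 8 neuroendocrine markers was 3598 to 3963 CPM in H69, 3443 to 3605 in H69M, 4858 to 5121 in the PD-L1 low and 1383 to 1432 in the PD-L1 high fraction, all 8 with counts in each. It was 2546 to 2608 against 730 to 747 CPM in the HLA low and high fractions, and 2556 to 3165 against 152 to 195 in RPP and RPP-A. Fibroblast markers (6 genes) summed to 147 to 151, 2485 to 2775, 242 to 339 and 11082 to 11376 CPM in the 4 groups of the first table, to 94.0 to 96.9 against 16312 to 17747 in the HLA sort, where COL3A1 was at 0 in the low fraction, and to 80.3 to 437 against 22557 to 30203 in the mouse, where Lum was at 0 in RPP. COL1A1 and COL1A2 made up most of the human sums, with means of 5877 and 4864 CPM in PD-L1 high and 9297 and 6474 in HLA high cells. In these fractions, in the same order, mean COL3A1 was 329 and 1212 CPM and mean LUM 101 and 44.1. DCN reached at most 1.71 and 0.547 CPM there, and PDGFRA at most 28.1 and 1.72. In RPP-A, mean Dcn was 1320 and mean Pdgfra 645 CPM. The part of the neuroendocrine and fibroblast markers in the results below was not tested. Leukocyte markers summed to at most 9.13 CPM in a human library, with CD3E at 0 throughout. In the mouse they summed to 1.96 to 3.09 CPM in RPP and to 32.5 to 36.4 in RPP-A. There, mean Cd14 was 0.307 CPM in RPP and 32.2 in RPP-A, while Ptprc and Cd3e were at 0 in RPP-A.

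Per kilobase of coding sequence, GAPDH had the highest level of the members in H69, at 4101 CPM per coding kb, followed by LDHA (820), TPI1 (787) and ENO1 (738). Not every glycolytic enzyme was above the carriers: SLC16A1 was at 71.2 CPM per coding kb, above PFKL (47.7), PGAM1 (44.3) and HK1 (21.5), and the lowest detected members were PDK4 (0.844) and CA9 (0.418). SLC2A3 (GLUT3, a high-affinity glucose carrier) and ANGPTL4 (a secreted inhibitor of lipoprotein lipase) had no count in any H69 library. Capture may retrieve genes unequally, so the order between genes is approximate. Genes with near-identical copies can lose or gain reads. The copies PGAM4, LDHAL6A and LDHAL6B reached at most 0.365 CPM in the human libraries, and mouse Eno1, which has the copy Eno1b, was near 0 although enolase 1 is an abundant enzyme, so it gave no value here.

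H69M was compared with H69, its parent line, at the level of unsorted cells. Of the 33 members, 22 were higher in H69M and 6 lower (edgeR quasi-likelihood test, adjusted p under 0.05), where 35.9% and 36.6% of all 15445 tested genes were called higher and lower. The members' median log2 fold change was 0.29, against -0.01 over all genes. All 4 carriers were higher, as were 6 of 10 upper glycolytic, 4 of 7 lower glycolytic, 3 of 5 pyruvate and 5 of 7 hypoxia genes.

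The largest rise among members with counts in both lines was in SLC16A3 (MCT4), the carrier that exports lactate from glycolytic cells. It was at 1.41, 1.59 and 1.13 CPM in the H69 libraries and at 21.7, 20.5 and 24.2 in H69M, a log2 fold change of 3.95 ± 0.16 (adjusted p = 9.31e-15). SLC2A1 (GLUT1, the basal glucose carrier) was at 52.2, 54.2 and 54.5 CPM in H69 and at 100.3, 92.1 and 96.4 in H69M (0.85 ± 0.06). Neither gene's groups overlapped. SLC2A3 had 20 counts over the H69M libraries, at least 6.20-fold above the 3 counts over the group that a count of 0 in H69 allows, and ANGPTL4 had 29, at least 8.99-fold.

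Among the enzymes, the 3 largest rises were of isozymes that had the lower level of their pair in H69. HK2, the inducible hexokinase that traps glucose in the cell, was at 10.8, 7.97 and 10.1 CPM in H69 and at 43.5, 41.2 and 42.7 in H69M (log2 fold change 2.16 ± 0.09, adjusted p = 4.14e-14). PFKFB4, which sets the level of the activator fructose 2,6-bisphosphate, was at 2.70, 3.32 and 2.99 against 9.62, 8.21 and 9.41 CPM (1.59 ± 0.14). ALDOC, the aldolase of brain, was at 3.98, 3.74 and 5.81 against 9.03, 10.7 and 10.02 CPM (1.21 ± 0.16). In each the 3 H69M libraries lay above the 3 of H69. The enzymes ALDOA (0.06 ± 0.06), TPI1 (0.04 ± 0.05) and GAPDH (0.04 ± 0.06) did not pass the test. GAPDH passed without H69 replicate 3 (0.12, adjusted p = 0.0429), as did ENO2 without H69M replicate 3 (-0.13, adjusted p = 0.0337).

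Members that were lower in H69M came from different steps. EGLN3, a HIF prolyl hydroxylase that is itself induced by HIF, was at 12.6, 13.7 and 12.8 CPM in H69 and at 4.76, 4.93 and 5.55 in H69M (log2 fold change -1.36 ± 0.10, adjusted p = 1.03e-10). GPI, which converts glucose 6-phosphate to fructose 6-phosphate, was at 629, 612 and 645 against 393, 391 and 406 CPM (-0.66 ± 0.05). PDK3 changed by -0.42 ± 0.05 and PFKL, the liver-type phosphofructokinase, by -0.40 ± 0.06. Of the hypoxia genes, NDRG1 (1.09 ± 0.10) and VEGFA (0.83 ± 0.08), the angiogenic growth factor, were higher. The calls of 4 members depended on single libraries: PFKFB3 (-0.20 ± 0.08) was lost without H69 replicate 1 or 2 or H69M replicate 2 or 3 (adjusted p = 0.08 to 0.198), and PGK1 (0.16 ± 0.06) without replicate 1 of either line (0.131 and 0.112). PDK4 (-0.85 ± 0.34) was lost without H69 replicate 1 or 3 or H69M replicate 1 (0.0641 to 0.132), and CA9 (0.89 ± 0.37) without replicate 1 or 3 of either line (0.0694 to 0.109).

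**Figure D1:**
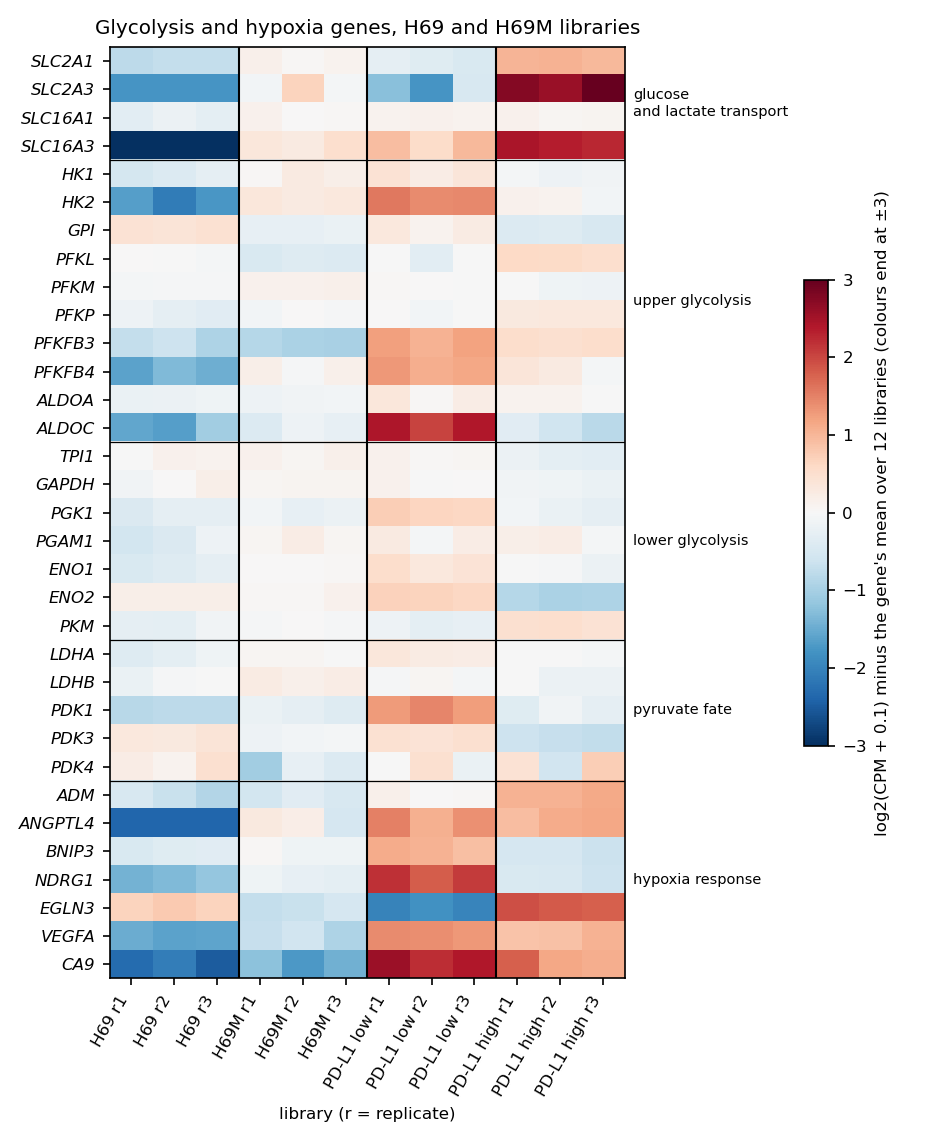
Heat map of the 33 members (vertical axis, by role) in the 12 libraries of the H69 and H69M table (horizontal axis). Colour is log2(CPM + 0.1) minus the gene's mean over the 12 libraries and ends at -3 and 3. The 3 PD-L1 low libraries are above the mean for ALDOC, NDRG1, PDK1, HK2 and CA9, and the 3 PD-L1 high libraries for SLC16A3, SLC2A1 and EGLN3.

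In the PD-L1 sort, members were called in both directions. From the PD-L1 low to the PD-L1 high fraction 8 members went up and 19 down, where 39% of all tested genes were called higher and 39.4% lower. The members' median log2 fold change was -0.30, against -0.00 over all genes. Of the carriers, 3 were higher and none lower. Of the upper glycolytic genes 2 were higher and 7 lower, of the lower glycolytic genes 1 and 5, of the pyruvate genes 0 and 3, and of the hypoxia genes 2 and 4. In bulk libraries, fewer cells that express a gene and less RNA per cell cannot be told apart.

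Each of the 4 groups was also asked which members were called higher, or lower, than in each of the other 3. The PD-L1 low fraction was the highest of the 4 for 14 members, 42.4% of them, where 16.8% of all tested genes were highest there. These were HK1, HK2, PFKFB3, PFKFB4, ALDOC, PGK1, ENO1, ENO2, LDHA, PDK1, BNIP3, NDRG1, VEGFA and CA9. H69 was the lowest of the 4 for 17 members (51.5%, and 19.1% of all tested genes). The PD-L1 high fraction was the highest for 8 members (24.2%, close to the 23.5% of all tested genes) and the lowest for 5 (15.2%, and 19.4% of all genes). H69 was the highest for GPI alone (20.3% of all genes) and the PD-L1 low fraction the lowest for EGLN3 alone (14.4% of all genes). H69M was the highest for PFKM and LDHB (3.16% of all genes) and the lowest for PFKL and PFKFB3 (3.85% of all genes).

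Genes that HIF induces stood on both sides, with ADM and EGLN3 highest in the PD-L1 high fraction. The carriers SLC2A1, SLC2A3 and SLC16A3 were highest in that fraction too. Several of the genes highest in PD-L1 low cells are also classical HIF targets. NDRG1, a growth arrest gene, was at 127, 98.5 and 119 CPM there, against 10.4, 11.1 and 12.4 in H69, 25.6, 23.4 and 22.5 in H69M and 20.2, 19.9 and 18.1 in the PD-L1 high fraction. Every PD-L1 low library was thus several times above every other library. Its log2 fold change was 3.36 ± 0.09 over H69 (10.3-fold, adjusted p = 8.16e-17), and in the sort the PD-L1 high fraction was 5.88-fold below the PD-L1 low fraction (-2.56 ± 0.09, adjusted p = 6.18e-16). ALDOC was at 65.1, 49.4 and 63.4 CPM in the PD-L1 low and at 9.40, 7.85 and 6.75 in the PD-L1 high fraction (-2.87 ± 0.13, adjusted p = 3.5e-14). BNIP3, a mitochondrial protein that promotes mitophagy, was at 75.1, 71.6 and 64.9 against 24.6, 24.6 and 22.2 CPM (-1.57 ± 0.07). The fractions did not overlap for either gene, and for BNIP3 the PD-L1 high fraction lay within 0.15 ± 0.08 (log2) below H69, a difference that did not pass the test.

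The hexokinases HK1 and HK2 and the kinases PFKFB3 and PFKFB4 were also higher in the PD-L1 low than in the PD-L1 high fraction. HK2 was at 103, 91.4 and 93.8 CPM in the PD-L1 low and at 37.4, 37.0 and 32.4 in the PD-L1 high fraction, so H69M (41.2 to 43.5) lay near the PD-L1 high level and far above H69. PFKFB3, the inducible bifunctional enzyme that makes fructose 2,6-bisphosphate, was at 74.5, 65.3 and 72.7 against 45.6, 44.2 and 45.4 CPM. PFKFB4 was at 20.8, 18.2 and 18.9 against 11.0, 10.3 and 8.09 CPM. The PD-L1 high fraction was lower for all 3 (log2 fold changes -1.43 ± 0.08, -0.65 ± 0.07 and -0.97 ± 0.11). HK1, the constitutive hexokinase, was at 105, 91.8 and 100.3 against 75.4, 69.9 and 72.2 CPM. Its place as highest in the PD-L1 low fraction rested on a small difference from H69M (0.18 ± 0.07), lost without H69M replicate 1 or 3 or PD-L1 low replicate 1 or 3 (adjusted p = 0.059 to 0.177).

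In lower glycolysis, PGK1, which makes the first ATP of the pathway, was at 1021, 957 and 940 CPM in the PD-L1 low and at 573, 529 and 505 in the PD-L1 high fraction (log2 fold change -0.86 ± 0.06). ENO1 was at 1791, 1536 and 1635 against 1230, 1212 and 1100 CPM (-0.49 ± 0.06). ENO2, the neuronal enolase used as a neuroendocrine marker, was at 350, 345 and 335 against 120, 113 and 113 CPM (-1.58 ± 0.05, adjusted p = 8.04e-17). The fractions did not overlap in any of these. ENO2 moved in the direction of the summed neuroendocrine markers given above, and its H69 level, 243 to 245 CPM, lay between the fractions.

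Of the genes for the fate of pyruvate, LDHA, PDK1 and PDK3 were higher in the PD-L1 low fraction. LDHA, which reduces pyruvate to lactate, was at 1355, 1261 and 1234 CPM in the PD-L1 low and at 1060, 1048 and 1015 in the PD-L1 high fraction (log2 fold change -0.30 ± 0.06). PDK1, the hypoxia-induced kinase that blocks entry of pyruvate into mitochondria, was at 41.1, 46.3 and 40.0 against 13.1, 15.6 and 13.9 CPM (-1.58 ± 0.08, adjusted p = 4.31e-13). PDK3 was at 75.6, 73.0 and 76.4 against 35.5, 34.3 and 32.8 CPM (-1.13 ± 0.06). PDK1 in the PD-L1 low fraction was 4.44-fold above H69 (2.15 ± 0.09), while PDK3 there did not pass the test against H69 (0.11 ± 0.05, and adjusted p = 0.0442 without H69 replicate 3). LDHB, PDK4 and SLC16A1 did not pass the test in the sort (-0.11 ± 0.06, 0.12 ± 0.33 and -0.03 ± 0.05). ALDOA and LDHB passed without PD-L1 high replicate 1 (-0.18 and -0.20), ALDOA also without PD-L1 low replicate 2 (-0.20) and LDHB without PD-L1 low replicate 1 (-0.16), and the small fall of PFKM (-0.11 ± 0.05) was lost without replicate 2 or 3 of either fraction (adjusted p = 0.0533 to 0.175) and was -0.20 without PD-L1 high replicate 1.

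**Figure D2:**
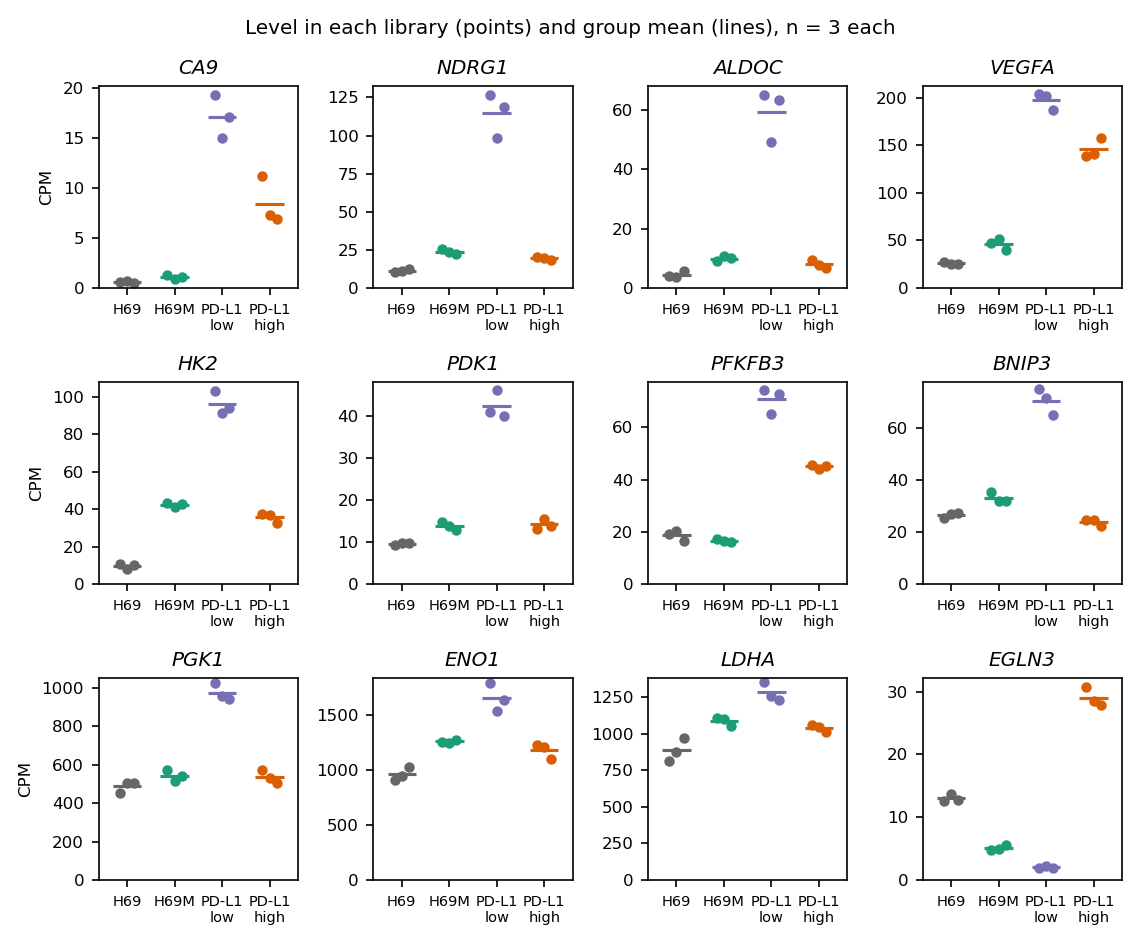
CPM per library (points, vertical axis starting at 0) and group means (lines) for 12 members in H69, H69M and the PD-L1 low and high fractions of H69M (horizontal axis, n = 3 each). The PD-L1 low libraries are the highest for every gene shown but EGLN3, for which they are the lowest.

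Upstream sequence was available from RefSeq (GRCh38.p14) for 29 of the 33 members, and is shown because HIF binds a short core motif. The motif searched was ACGTG or GCGTG on either strand in the 250 bases before the start site. CACGTG reads as ACGTG on both strands and counts on each. It occurred in 43.2% of 35116 RefSeq promoters of that length, in 17 of 29 members (58.6%) and in 10 of the 12 matched members that were highest in the PD-L1 low fraction (83.3%). HK1 and PDK1 were the other 2. ACGTG alone was in 18.5% of all promoters, 41.4% of members and 58.3% of those 12. A match is a description of the sequence and not a site of binding. The 12 were picked by their levels in these data, from a list that includes genes known to be induced by HIF. The RefSeq promoters were not matched to them in base composition, and were not reduced to 1 per gene as the members were. These shares are thus a description, and whether HIF acts on these genes was not tested. Of the members highest in the PD-L1 high fraction, ADM and PFKL had 1 match each. SLC2A1, SLC16A3, PFKP, PKM and EGLN3 had none, and SLC2A3 had no sequence. Capitals mark the motif in 4 members high in the PD-L1 low fraction and in EGLN3, which was lowest there and has no match in this window: ALDOC (chr17:28576896-28577145, minus strand, 5 matches), PGK1 (chrX:78103998-78104247, plus, 3), LDHA (chr11:18394313-18394562, plus, 5), CA9 (chr9:35673678-35673927, plus, 1) and EGLN3 (chr14:33951075-33951324, minus).
ALDOC: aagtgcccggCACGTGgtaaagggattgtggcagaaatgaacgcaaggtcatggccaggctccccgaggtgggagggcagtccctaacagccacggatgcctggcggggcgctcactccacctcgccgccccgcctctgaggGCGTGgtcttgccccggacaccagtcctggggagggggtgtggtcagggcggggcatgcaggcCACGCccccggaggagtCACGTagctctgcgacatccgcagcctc
PGK1: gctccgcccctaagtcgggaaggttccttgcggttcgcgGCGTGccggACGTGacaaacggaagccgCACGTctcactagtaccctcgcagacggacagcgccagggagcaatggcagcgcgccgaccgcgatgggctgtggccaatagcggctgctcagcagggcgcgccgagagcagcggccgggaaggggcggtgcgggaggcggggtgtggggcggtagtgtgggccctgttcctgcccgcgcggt
LDHA: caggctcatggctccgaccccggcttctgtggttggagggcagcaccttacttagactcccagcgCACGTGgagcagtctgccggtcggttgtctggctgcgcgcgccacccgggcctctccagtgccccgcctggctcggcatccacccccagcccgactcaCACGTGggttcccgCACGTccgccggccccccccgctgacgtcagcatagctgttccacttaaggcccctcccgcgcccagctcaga
CA9: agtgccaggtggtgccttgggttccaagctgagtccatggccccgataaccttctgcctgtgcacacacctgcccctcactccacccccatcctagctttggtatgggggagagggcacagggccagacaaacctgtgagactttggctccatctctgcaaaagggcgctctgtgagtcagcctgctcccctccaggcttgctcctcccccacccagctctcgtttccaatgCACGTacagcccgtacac
EGLN3: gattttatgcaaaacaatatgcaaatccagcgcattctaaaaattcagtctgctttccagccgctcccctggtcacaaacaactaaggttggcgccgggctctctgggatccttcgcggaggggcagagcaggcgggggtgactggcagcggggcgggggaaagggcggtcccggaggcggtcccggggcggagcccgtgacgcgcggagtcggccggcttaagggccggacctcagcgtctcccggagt

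The 8 members that were highest in the PD-L1 high fraction were SLC2A1, SLC2A3, SLC16A3, PFKL, PFKP, PKM, ADM and EGLN3. EGLN3 was at 30.7, 28.5 and 27.9 CPM in the PD-L1 high and at 1.91, 2.19 and 1.95 in the PD-L1 low fraction, with H69M (4.76 to 5.55) between them and H69 (12.6 to 13.7) above H69M. The PD-L1 high fraction was 14.4-fold above the PD-L1 low fraction (log2 fold change 3.84 ± 0.11, adjusted p = 1.92e-17). In the sort EGLN3 thus went in the opposite direction to NDRG1, BNIP3 and PDK1, which HIF also induces. ADM, a vasodilator peptide, was at 13.7, 13.7 and 14.6 against 7.36, 6.61 and 6.80 CPM (1.01 ± 0.10).

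The carriers were the one functional group without a lower member in the PD-L1 high fraction. SLC2A1 was at 182, 186 and 175 CPM in the PD-L1 high and at 74.1, 69.6 and 64.9 in the PD-L1 low fraction (log2 fold change 1.38 ± 0.06, adjusted p = 7.84e-15). SLC16A3 was at 93.5, 87.1 and 81.6 against 32.2, 24.8 and 33.3 CPM (1.55 ± 0.09, adjusted p = 2.78e-12). SLC2A3 had 119 counts against 3, 43.0 times as high (95% counting interval 14.4 to 212). For SLC2A1 the PD-L1 low fraction lay below unsorted H69M (92.1 to 100.3 CPM) and the PD-L1 high fraction above it. PKM, the pyruvate kinase, was at 1479, 1491 and 1427 against 947, 861 and 896 CPM (0.70 ± 0.05), and PFKL at 171, 169 and 161 against 113, 91.7 and 113 CPM (0.66 ± 0.06).

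Some hypoxia genes, and PFKFB3 of upper glycolysis, were above the unsorted H69M level in both sorted fractions. CA9, a cell surface carbonic anhydrase used as a hypoxia marker, was at 1.30, 0.896 and 1.11 CPM in H69M, at 19.3, 15.02 and 17.1 in the PD-L1 low and at 11.2, 7.26 and 6.89 in the PD-L1 high fraction. VEGFA was at 47.1, 51.1 and 40.4 CPM in H69M, at 203, 202 and 187 in the PD-L1 low and at 139, 141 and 157 in the PD-L1 high fraction. PFKFB3 was at 17.4, 16.4 and 16.1 CPM in H69M, below every library of both fractions. For these 3 genes the unsorted level did not lie between the levels of the fractions. The log2 fold changes from H69M to the PD-L1 low fraction were 3.94 ± 0.19, 2.10 ± 0.07 and 2.09 ± 0.07, and to the PD-L1 high fraction 2.95 ± 0.22, 1.66 ± 0.07 and 1.44 ± 0.08. Both comparisons share the H69M libraries. The pattern was not limited to these genes. In H69M, PD-L1 low and PD-L1 high, mean CPM per coding kb was 8.58, 12.5 and 25.3 for ADM. It was 0.357, 0.980 and 0.808 for ANGPTL4 and 36.3, 45.2 and 71.4 for PFKL. PFKM and LDHB were instead highest in H69M. H69M was unsorted and both fractions were sorted, so sorting cannot be told apart from other differences here. Over all members, 21 were higher and 6 lower in the PD-L1 low fraction than in H69M (32.6% and 33% of all genes), and 14 and 11 in the PD-L1 high fraction (37.8% and 32.6%).

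Against H69, the PD-L1 low fraction had 22 members higher and 2 lower (39% and 36.9% of all genes), with a median of 0.53 against 0.02. CA9 rose most among members with counts in both, from 0.563, 0.680 and 0.484 CPM in H69 to 17.1 ± 2.13 (SD, n = 3), a log2 fold change of 4.83 ± 0.22 (28.5-fold). For ANGPTL4, absent from the H69 counts, the fraction was at least 25.3-fold higher. The PD-L1 high fraction had 24 higher and 5 lower than H69 (38.1% and 39.5% of all genes), with SLC16A3 at 5.93 ± 0.14, SLC2A3 at least 47.4-fold and ANGPTL4 at least 20.7-fold higher. These comparisons share the H69 libraries. SLC2A3 in the PD-L1 low fraction passed against H69 only without PD-L1 low replicate 2 (adjusted p = 0.0332). In the PD-L1 high fraction, the call of GAPDH (-0.18 ± 0.06) was lost without H69 replicate 3 (adjusted p = 0.0677), and that of PGK1 (0.14 ± 0.06) without H69 replicate 1 or PD-L1 high replicate 1 or 2 (0.0568 to 0.299).

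The step from PD-L1 low to PD-L1 high was tested against the step from H69 to H69M, since both go from low to high MHC class I. The log2 fold change of the sort was below that of the derivative for 23 members and above it for 5, where 36.1% and 35.3% of all genes were called in these directions. Among members with counts in all 4 groups, the largest differences were in EGLN3 (5.20 ± 0.15, lower in H69M but higher in the PD-L1 high fraction), ALDOC (-4.07 ± 0.21), NDRG1 (-3.65 ± 0.13) and HK2 (-3.59 ± 0.12), the last 3 higher in H69M but lower in the PD-L1 high fraction. SLC16A3 was higher in both steps and its difference was -2.41 ± 0.20.

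H69EZ offered a sort for HLA class I itself, with no library in common with the PD-L1 sort. Of 32 tested members, 20 were higher and 7 lower in the HLA high fraction, where 41.1% and 40.2% of 14819 tested genes were called higher and lower. The median log2 fold change was 0.57, against 0.00 over all genes. Of the lower glycolytic genes 6 of 7 were higher, of the upper 5 of 10, of the carriers 3 of 4, of the tested pyruvate genes 3 of 4 and of the hypoxia genes 3 of 7. With 2 libraries a group, the p-values rest on a spread shared over all genes.

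EGLN3 showed the largest change among members with counts in every library, from 0.198 and 0.255 CPM in the HLA low to 11.2 and 11.8 in the HLA high fraction (50.5-fold, log2 fold change 5.66 ± 0.20). SLC16A3 was at 3.87 and 3.55 against 59.1 and 49.8 CPM (3.87 ± 0.10). SLC2A3 had 102 counts against 2, 54.1 times as high (95% counting interval 14.6 to 453). SLC2A1 was at 30.2 and 28.4 against 73.3 and 68.1 CPM (1.27 ± 0.07). These are 4 of the 8 members that were also higher in the PD-L1 high fraction, and no library of the low fraction reached the high fraction for any of them.

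The members higher in HLA high cells included ALDOA, PKM, LDHA, PDK1 and PDK3. LDHA was at 695 and 659 CPM in the HLA low and at 1769 and 1739 in the HLA high fraction (log2 fold change 1.37 ± 0.06). ALDOA was at 502 and 483 against 1141 and 991 CPM (1.11 ± 0.06), and PKM at 602 and 573 against 1449 and 1380 CPM (1.27 ± 0.06). PDK1 was at 6.17 and 6.33 against 13.5 and 13.4 CPM (1.11 ± 0.10), and PDK3 at 13.0 and 12.3 against 32.7 and 32.4 CPM (1.36 ± 0.08). All 5 were higher in both HLA high libraries. CA9 was at 6.01 and 5.57 against 17.8 and 15.2 CPM (1.51 ± 0.10), and ADM at 20.2 and 18.7 against 60.6 and 57.9 CPM (1.61 ± 0.08).

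On the lower side in HLA high cells were ENO2, at 229 and 229 against 97.6 and 93.4 CPM (log2 fold change -1.26 ± 0.06), PFKM, the muscle-type phosphofructokinase, at 125 and 123 against 76.7 and 73.1 CPM (-0.72 ± 0.07), and VEGFA, at 280 and 267 against 181 and 181 CPM (-0.60 ± 0.06). NDRG1 (0.09 ± 0.09) and BNIP3 (-0.16 ± 0.08) did not pass the test, and BNIP3 did without HLA high replicate 1 (-0.21, adjusted p = 0.00541). Smaller calls were lost without 1 HLA low library: HK1 (0.23 ± 0.07), PFKFB3 (-0.15 ± 0.07) and LDHB (-0.14 ± 0.06) without either (adjusted p = 0.0613 to 0.323), HK2 (-0.27 ± 0.07) and TPI1 (0.19 ± 0.06) without HLA low replicate 2 (0.0522 and 0.214), and GPI (-0.25 ± 0.06) without HLA low replicate 1 (0.0628). TPI1 was at 0.11 without HLA high replicate 1. The members called lower numbered 4 without HLA low replicate 1 and 4 without HLA low replicate 2.

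SLC2A1, SLC2A3 and SLC16A3 were higher in the high fraction of both sorts, and the fourth carrier, SLC16A1, was called in neither. All 8 members higher in the PD-L1 high fraction were higher in the HLA high fraction (100% of the PD-L1 list and 40% of the HLA list), where 68.5% of all genes higher in the PD-L1 sort were also higher in the HLA sort. Of the 19 members lower in the PD-L1 high fraction, 6 were lower in the HLA high fraction (HK2, GPI, PFKM, PFKFB3, ENO2 and VEGFA, 31.6%), against 66.1% of all genes. A further 10, HK1, ALDOC, TPI1, GAPDH, PGK1, ENO1, LDHA, PDK1, PDK3 and CA9, were higher in the HLA high fraction (52.6%, against 17.8% of all genes). No member was higher in the PD-L1 sort and lower in the HLA sort. The difference between the sorts, which were counted in separate tables, was not tested. Several of these are calls lost without 1 library, as given above: HK1 and TPI1 among the 10 that were opposite, and HK2, GPI and PFKFB3 (HLA sort) and PFKM (PD-L1 sort) among the 6 lower in both, so that ENO2 and VEGFA were lower in both sorts with any single library left out.

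**Figure D3:**
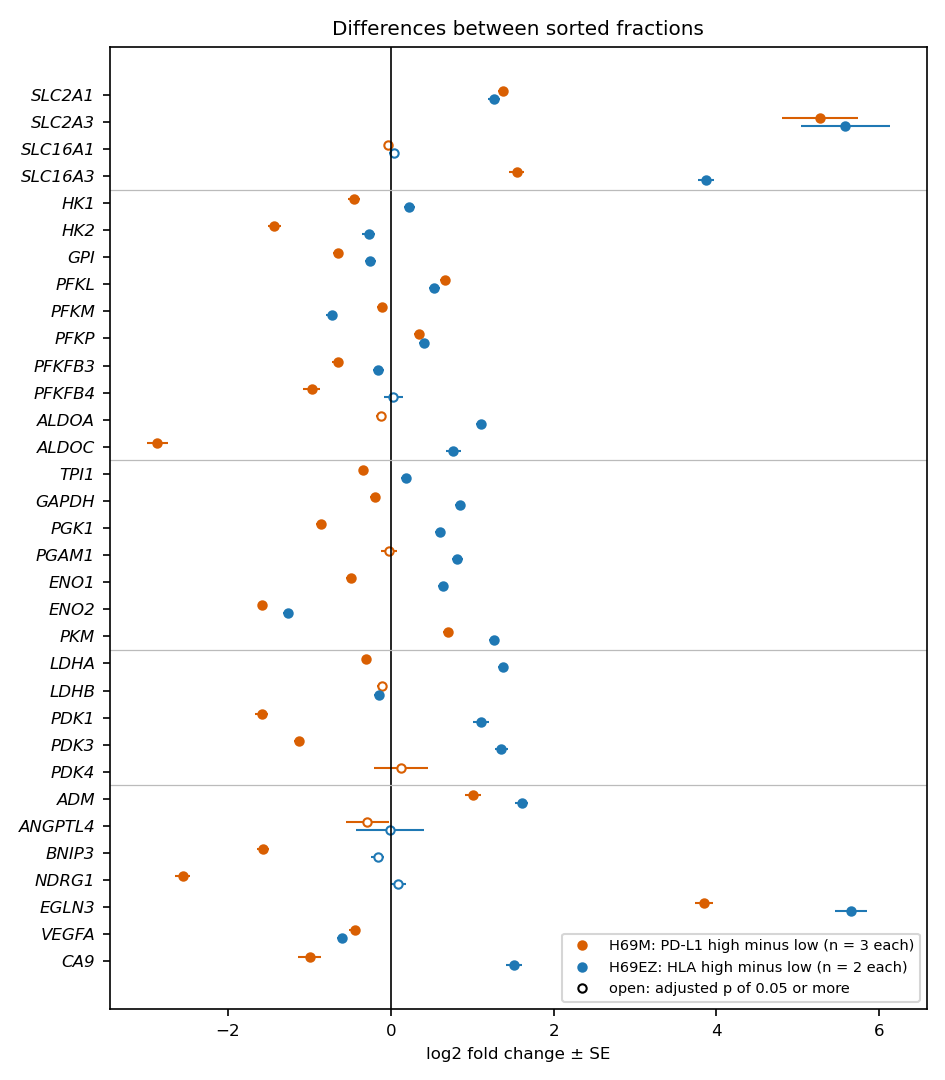
Log2 fold change (horizontal axis, ± SE) of each member (vertical axis) from the low to the high fraction in the PD-L1 sort of H69M (orange, n = 3 each) and the HLA sort of H69EZ (blue, n = 2 each). Open points have an adjusted p of 0.05 or more, and PDK4 was not tested in the HLA sort. EGLN3, SLC16A3 and SLC2A1 are to the right in both sorts, ENO2 to the left in both, and LDHA, PDK1, PDK3 and CA9 on opposite sides.

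The balance between isozymes was described as the share of the first gene in the summed CPM per coding kb of the pair, which needs no scaling between libraries. HK2 made up 11.9% to 16.6% of HK2 plus HK1 in H69, 30.5% to 35.3% in H69M, 48.4% to 50.0% in the PD-L1 low and 31.0% to 34.7% in the PD-L1 high fraction. SLC16A3 made up 1.14% to 1.49% of SLC16A3 plus SLC16A1, the carrier for lactate and pyruvate of most cells, in H69, 14.2% to 16.5% in H69M, 16.0% to 20.5% in the PD-L1 low and 39.4% to 41.9% in the PD-L1 high fraction. In the HLA sort it was 1.76% to 1.93% in the low and 19.2% to 22.9% in the high fraction. The shift to SLC16A3 in the high fraction was thus seen in both sorts, while the share of HK2 was lower in the high fraction of both (41.7% to 43.2% against 33.2% to 35.3% in H69EZ).

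PFKL made up 52.0% to 57.8% of PFKL plus PFKM in the PD-L1 low and 67.5% to 69.1% in the PD-L1 high fraction, and 40.8% to 41.5% against 62.3% to 62.9% in the HLA sort. ENO2 made up 16.3% to 18.3% against 8.49% to 9.33% of ENO2 plus ENO1 in the PD-L1 sort and 24.0% to 24.9% against 7.84% to 8.02% in the HLA sort. Both shares moved the same way in both sorts, without overlap. LDHB, whose product favours the conversion of lactate to pyruvate, made up 30.3% to 33.2% against 33.8% to 36.2% of LDHB plus LDHA in the PD-L1 sort and 43.8% to 44.2% against 21.5% to 21.7% in the HLA sort, so it moved in opposite directions. PDK1 made up 10.9% to 11.5% of PDK1 plus PDK3 in H69 and 32.3% to 36.6% in the PD-L1 low fraction. Its share was also above H69 elsewhere, at 18.0% to 21.2% in H69M and 25.1% to 29.3% in the PD-L1 high fraction. In the HLA sort it was 30.1% to 31.9% in the low and 27.3% to 27.4% in the high fraction. ALDOC was 0.562% to 0.845% of ALDOC plus ALDOA in H69 and 6.01% to 6.82% in the PD-L1 low fraction. It was 1.32% to 1.52% in H69M and 0.896% to 1.15% in the PD-L1 high fraction.

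**Figure D4:**
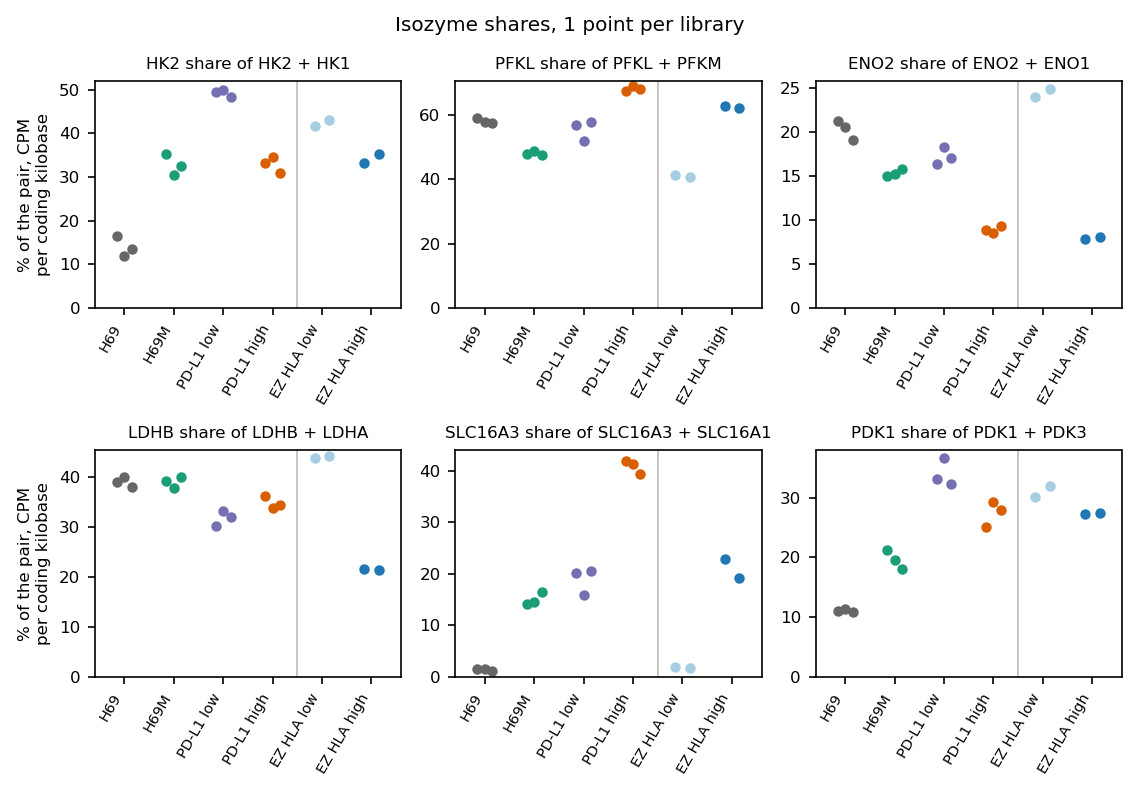
Share in percent (vertical axis) of the first gene in the summed CPM per coding kb of 6 isozyme pairs, 1 point per library, in the 6 human groups (horizontal axis, n = 3 in the H69 and H69M groups and n = 2 in the H69EZ fractions). SLC16A3 has its highest share in the PD-L1 high fraction and ENO2 its lowest shares in the PD-L1 high and HLA high fractions.

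In the mouse, RPP-A had 16 of 30 tested members higher than RPP and 4 lower, where 37.6% and 40.6% of 14032 tested genes were called higher and lower. The members' median log2 fold change was 1.33, against -0.04 over all genes. The count of higher members depended on single libraries: without the RPP column EHK_RPP4, 26 members were higher and 4, again Slc2a3, Pfkfb4, Aldoc and Eno2, were lower, while without RPP1, RPP2 or RPPM3, each in turn, 12 were higher.

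The RPP libraries differed among themselves in these genes. EHK_RPP4 was above both RPP1 and RPP2 for all 30 tested members and more than 2-fold above their mean for 22 (73.3%), where 43.2% of all tested genes were above both and 6.73% more than 2-fold. The median ratio was 3.09 over members and 0.998 over all genes. Hk2 was at 51.3 CPM in EHK_RPP4 and at 3.12 and 3.80 in RPP1 and RPP2, Aldoa at 937 against 104 and 102, and Ldha at 1498 against 208 and 225. For Ldha, EHK_RPP4 lay within the RPP-A range of 1430 to 1646 CPM. The neuroendocrine markers of EHK_RPP4 summed to 2556 CPM against 3165 and 2981 in RPP1 and RPP2, the non-neuroendocrine markers to 207 against 86.8 and 78.6, and the fibroblast markers to 437 against 80.3 and 84.8, all far from RPP-A. Their part in its glycolytic levels was not tested.

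Some members separated RPP-A from all 3 RPP libraries. Ldhb was at 5.22, 3.26 and 4.99 CPM in RPP (EHK_RPP4, RPP1 and RPP2) and at 65.4, 71.2 and 99.3 in RPP-A (RPPM1, RPPM2 and RPPM3), a log2 fold change of 4.13 ± 0.24 (17.6-fold, adjusted p = 2.21e-06). Slc16a1 was at 46.4, 32.1 and 31.6 against 202, 196 and 238 CPM (2.53 ± 0.17), and Pfkm at 29.6, 12.2 and 14.6 against 103, 104 and 108 CPM (2.49 ± 0.30). Vegfa was at 171, 60.7 and 59.6 against 634, 635 and 516 CPM (2.62 ± 0.42). In these 4 genes the groups did not overlap, with or without EHK_RPP4.

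Pdk4, the kinase that starved or fat-burning cells use to spare pyruvate, was at 3.67, 0.0693 and 0 CPM in RPP and at 59.4, 61.1 and 55.3 in RPP-A (log2 fold change 5.66 ± 0.79, adjusted p = 0.000298). Angptl4 was at 6.44, 0.139 and 0 against 90.9, 92.7 and 134 CPM (5.69 ± 0.90, adjusted p = 0.000611), and Adm at 10.8, 0.831 and 0.985 against 23.5, 26.1 and 50.8 CPM (3.04 ± 0.83). All 3 were higher in every RPP-A library, and the size of each change depends on whether EHK_RPP4 is counted. Hk2 was 3.17 ± 0.95 with EHK_RPP4 and 5.68 ± 0.14 without it.

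The 4 lower members were Slc2a3, Pfkfb4, Aldoc and Eno2. Slc2a3 was at 7.18, 5.96 and 5.41 CPM in RPP and at 0.136, 0 and 0.0625 in RPP-A, with 251 counts against 3, 98.5 times as high in RPP (95% counting interval 33.3 to 481). Pfkfb4 was at 30.9, 29.4 and 30.3 against 6.84, 7.63 and 5.68 CPM (log2 fold change -2.17 ± 0.14), and Eno2 at 49.9, 43.2 and 40.8 against 18.9, 18.0 and 17.6 CPM (-1.30 ± 0.11). Aldoc was at 42.2, 13.9 and 13.8 against 3.46, 3.56 and 5.81 CPM (-2.44 ± 0.50). No RPP-A library reached an RPP library in any of them. Slc2a3 thus had its higher level on the low MHC class I side in the mouse, where the human sorts had it on the high side.

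For 10 tested members the RPP-A and RPP groups were not called different: Slc16a3, Pfkl, Pfkp, Pfkfb3, Aldoa, Pgk1, Ldha, Pdk3, Bnip3 and Egln3. Aldoa had a log2 fold change of 1.62 ± 0.83 (adjusted p = 0.107) and Ldha of 1.22 ± 0.72 (adjusted p = 0.155). Without EHK_RPP4 all 10 passed the test as higher in RPP-A, with Aldoa at 3.55 ± 0.13, Ldha at 2.84 ± 0.11, Bnip3 at 2.61 ± 0.28, Pgk1 at 2.28 ± 0.10, Pfkl at 2.26 ± 0.09, Slc16a3 at 1.91 ± 0.18, Pfkfb3 at 1.78 ± 0.09, Egln3 at 1.32 ± 0.21, Pfkp at 0.72 ± 0.10 and Pdk3 at 0.38 ± 0.13. Slc2a1 (1.44 ± 0.48) and Pdk1 (2.12 ± 0.69) were called, rose to 2.36 and 3.61 without EHK_RPP4 and were lost without RPP1, RPP2 or RPPM3 (adjusted p = 0.0549 to 0.0839). Hk1 (0.29 ± 0.10) was lost without RPP1, RPP2, RPPM1 or RPPM2 (0.0618 to 0.105), Pkm (0.72 ± 0.23) without RPP1, RPP2 or RPPM3 (0.0579 to 0.0779), and Tpi1 (1.54 ± 0.45, or 2.36 without EHK_RPP4) without RPPM3 (0.0545).

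**Figure D5:**
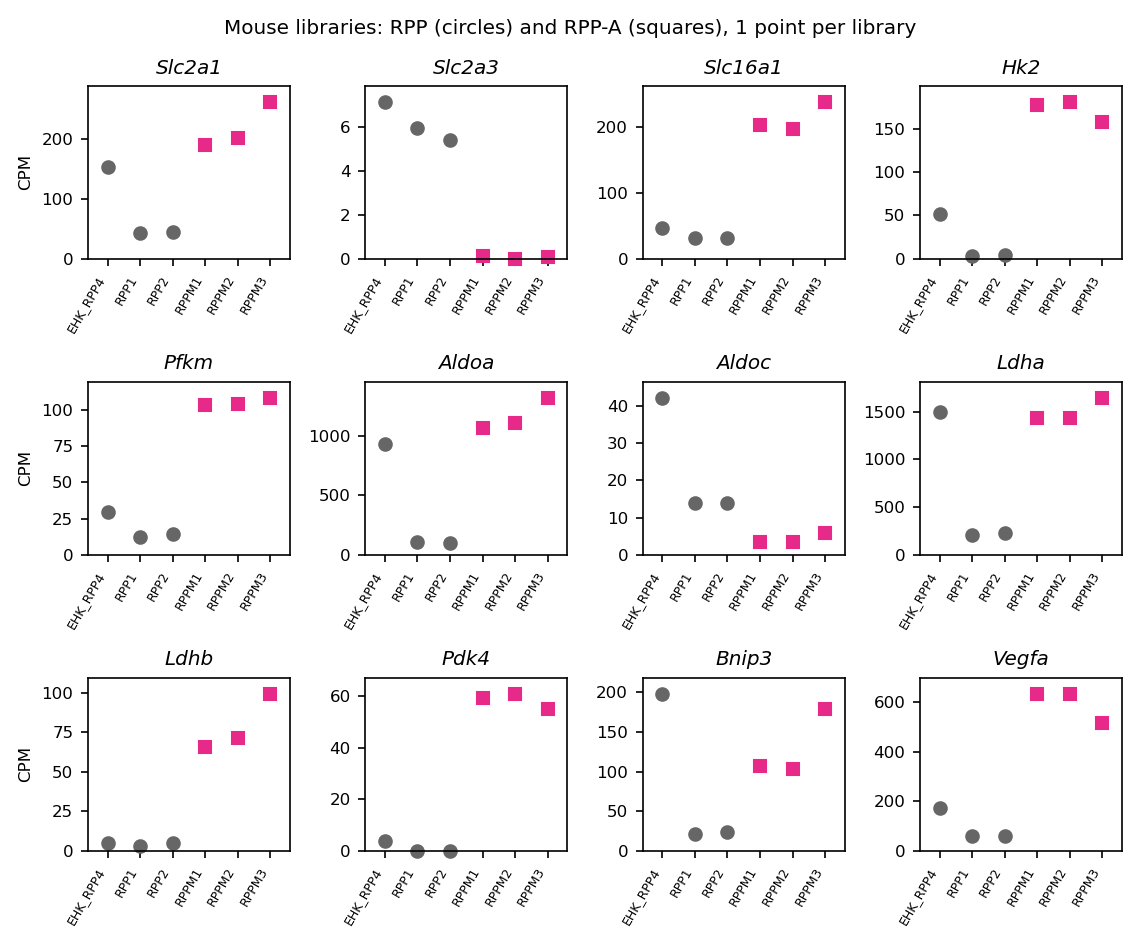
CPM per library (points, vertical axis starting at 0) of 12 members in the RPP columns EHK_RPP4, RPP1 and RPP2 and the RPP-A columns RPPM1, RPPM2 and RPPM3 (horizontal axis). EHK_RPP4 is near the RPP-A libraries for Aldoa and Ldha, and near RPP1 and RPP2 for Ldhb, Slc16a1 and Slc2a3.

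Genes beside the members were taken from lists of the same pathways, and their counts stand beside the shares of all tested genes called in each comparison. Of 28 other genes of glycolysis, glucose transport and lactate, 17 passed the filter. In the PD-L1 low fraction 4 were higher and 9 lower than in H69 (39% and 36.9% of all genes, median log2 fold change -0.26), and 5 were higher and 9 lower than in H69M (32.6% and 33% of all genes, median -0.30). In the PD-L1 sort 8 were higher and 7 lower (39% and 39.4% of all genes), and in the HLA sort 9 and 6 of 18 (41.1% and 40.2%). Of 30 other hypoxia response genes, 25 were higher and 3 lower in the PD-L1 low fraction than in H69 (39% and 36.9% of all genes, median log2 fold change 1.02), and in the PD-L1 sort 9 were higher and 16 lower on the PD-L1 high side (39% and 39.4% of all genes, median -0.33). DDIT4, a stress-induced inhibitor of mTORC1, was at 1014 ± 100 CPM in the PD-L1 low fraction, 113 ± 2.66 in H69 and 83.5 ± 14.2 in the PD-L1 high fraction (SD, n = 3 each), a log2 fold change of -3.60 ± 0.09 in the sort. HILPDA, a lipid droplet protein, changed by -2.43 ± 0.07 and ANKRD37 by -2.42 ± 0.17. In the other direction, EDN1 (8.04 ± 0.31) and TMEM45A (5.92 ± 0.20) were far higher in the PD-L1 high fraction. In the HLA sort the list divided evenly, 14 higher and 14 lower (41.1% and 40.2% of all genes), and in the mouse it had 14 higher and 5 lower of 28 (37.6% and 40.6%).

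The alpha subunits HIF1A and EPAS1 were lower in the PD-L1 low than in the PD-L1 high fraction. HIF1A was at 707 ± 32.2 CPM in the PD-L1 high and 314 ± 14.0 in the PD-L1 low fraction (log2 fold change 1.17 ± 0.06), and EPAS1, which encodes HIF-2 alpha, at 89.6 ± 4.62 against 0.298 ± 0.252 CPM (8.40 ± 0.17). In the HLA sort HIF1A changed by 1.40 ± 0.06 and EPAS1 by 8.13 ± 0.33, and in the mouse Hif1a by 2.08 ± 0.17 and Epas1 by 3.40 ± 0.37, so both were higher on the high MHC class I side in each comparison. HIF activity is set mainly by protein stability, which was not measured. ARNT2, a partner subunit of the nervous system, changed by -1.38 ± 0.06 in the PD-L1 sort and by 4.15 ± 0.10 in the HLA sort. Of the 9 tested subunits and sensors, 4 were higher and 3 lower in each of the human sorts (39% and 39.4% of all genes in the PD-L1 sort, 41.1% and 40.2% in the HLA sort), and 7 were higher and 1 lower in the PD-L1 low fraction than in H69 (39% and 36.9%).

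The genes that handle pyruvate in mitochondria were counted in the same way. Of 17 citric acid cycle genes, 0 were higher and 7 lower in H69M than in H69 (35.9% and 36.6% of all genes). The other 10 did not pass the test. In the PD-L1 low fraction 1 was higher and 11 were lower than in H69 (39% and 36.9% of all genes), with a median log2 fold change of -0.24. In the PD-L1 sort they were divided, 7 higher and 7 lower, near the 39% and 39.4% of all genes. Of 11 genes of the pyruvate dehydrogenase complex and its regulators, 2 were higher and 2 lower in the PD-L1 sort (39% and 39.4% of all genes), and PDP1, the phosphatase that reverses the PDK kinases, was the most changed (1.77 ± 0.06, and 1.84 ± 0.07 in the HLA sort). MPC1, a subunit of the mitochondrial pyruvate carrier, fell by 1.05 on the log2 scale from 50.7 ± 4.41 to 24.4 ± 1.67 CPM in H69M. PCK2, the mitochondrial enzyme that makes phosphoenolpyruvate, was at 251 ± 9.86 CPM in the PD-L1 low fraction against 65.9 ± 3.54 in H69 and 36.9 ± 2.21 in the PD-L1 high fraction, an order like that of DDIT4.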

How the data were processed

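RNA sequencing libraries of 22 samples were made by exome capture, per the labels' protocols. The deposited values are whole-number counts per gene, unnormalised, in 3 tables. The submitters' processing notes name STAR 2.6.1, hg19 and mm10. Which tool and annotation the authors counted with, and whether by strand, is not given in the sources used here. Antisense and overlapping genes cannot be told apart. The 92 spike-in rows of 2 tables held 0 counts and were left out. No per-sample column was left unused (0 columns).

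A separate edgeR 4.0.16 model was fitted to every table under R 4.3.3 (TMM scaling, filterByExpr with a minimum count of 10, quasi-likelihood F-test, 1 coefficient per group, no replicate block), and p-values were adjusted by Benjamini-Hochberg over all tested genes with a threshold of 0.05. SE is the log2 fold change divided by the root of F. A group at 0 was set to 3 counts over the group for bounds, and ratios with 1 to 3 counts have 95% counting intervals, which cover counting error only. CPM is relative to the TMM-scaled library total. Coding lengths came from GENCODE 29 and promoters from RefSeq (GRCh38.p14), matched by symbol. The model code was tested on simulated data.

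Columns were matched to samples by their names. The mouse columns RPP1, RPP2 and EHK_RPP4 were taken as RPP and RPPM1 to RPPM3 as RPP-A, with no replicate numbers. All members could be named. Values per library are given for the members with the largest changes, in isozyme pairs or standing apart in 1 of 4 groups. Members and lists were chosen with earlier results of these data known. Same-numbered libraries showed no clear shared deviation, and numbers were not used to pair them in the main models. Alternatives were DESeq2 1.42.0 size factors, library totals, the DESeq2 test, limma-voom (limma 3.58.1), no filter, a minimum count of 100, the replicate number as a block, only the groups compared, RPPM1 and RPPM2 summed and each library left out. Added after seeing the data were EHK_RPP4 and RPPM3 both left out, the mouse table without Rn45s and the H69EZ table without mitochondrially encoded genes.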

Additional observations from a re-analysis of the deposited data

Results flagged for a closer look

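The step from PD-L1 low to PD-L1 high and the step from H69 to H69M differed by the test of the difference for 28 members. The sort was below the derivative for 23 and above it for 5, where 36.1% and 35.3% of all genes were called. The difference in log2 fold change (sort minus derivative) was above 0 for EGLN3 (5.20), PFKL (1.06), ADM (0.83), SLC2A1 (0.53) and PKM (0.50). Among the carriers and upper glycolysis it was below 0 for SLC16A3 (-2.41), SLC16A1 (-0.36), HK2 (-3.59), HK1 (-1.02), PFKFB4 (-2.57), PFKFB3 (-0.45), PFKM (-0.30) and ALDOC (-4.07). In lower glycolysis it was below 0 for ENO2 (-1.48), PGK1 (-1.02), ENO1 (-0.88), PGAM1 (-0.52), TPI1 (-0.38) and GAPDH (-0.24), and among the pyruvate genes for PDK1 (-2.11), PDK3 (-0.70), LDHA (-0.59) and LDHB (-0.40). Of the hypoxia genes it was below 0 for NDRG1 (-3.65), BNIP3 (-1.89), CA9 (-1.89), VEGFA (-1.27) and ANGPTL4 (-6.41). The ANGPTL4 value is a fitted one, since H69 had no count, and gives no bound.

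For 10 members every library of the PD-L1 high fraction lay on the opposite side of its low fraction from that seen in the HLA sort. They went down from PD-L1 low to PD-L1 high and up from HLA low to HLA high, where the log2 fold change was 1.51 for CA9, 1.37 for LDHA, 1.36 for PDK3, 1.11 for PDK1, 0.85 for GAPDH, 0.77 for ALDOC, 0.65 for ENO1, 0.61 for PGK1, 0.23 for HK1 and 0.19 for TPI1. By calls they were 52.6% of the members lower in the PD-L1 sort, against 17.8% of all genes. This difference between the sorts was not tested.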

How the results depend on the processing

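Among the counts of members, 3 moved by more than 1.5 times. The members lower in the PD-L1 low fraction than in H69 were 1 with library totals in place of TMM, against 2, where GPI did not pass (adjusted p = 0.075). The members lower in the HLA high fraction were 4 to 8 with 1 library left out, against 7. The members higher in RPP-A were 12 to 26 with 1 library left out, against 16, with 26 reached without EHK_RPP4, and 26 with EHK_RPP4 and RPPM3 both left out. In 2 cases a direction reversed, both with library totals: the difference between the 2 steps was -0.17 for GPI (adjusted p = 0.042, against 0.01), and mouse Hk1 was at -0.079 (adjusted p = 0.48, against 0.29). With library totals the median log2 fold change of all genes was -0.14 in the PD-L1 sort and 0.12 for PD-L1 low against H69. It was -0.18 for the difference between steps, -0.15 in the HLA sort and -0.40 in the mouse. With TMM it was 0.02 for PD-L1 low against H69 and -0.04 in the mouse.

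With the replicate block, the PD-L1 sort had 8 members higher and 18 lower and the HLA sort 20 and 8, and H69M against H69 had 22 and 6. The correlations of same-numbered libraries were -0.164 to 0.0946 in the H69 and H69M table and 0.0379 in the H69EZ table, so a number does not pair libraries. No paired analysis was possible for the mouse because its columns carry no matched numbers. Genes at a few counts, such as SLC2A3, ANGPTL4 and PDK4, are limited by depth.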
